A study of Mus musculus with 9 samples.

Results

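The atrial secretory granule and prohormone processing were followed through 10 genes across 3 groups of mouse heart samples on Affymetrix arrays. They are the granule enzymes Pam and Cpe, the proprotein-cleaving proteases Corin, Furin, Pcsk5 and Pcsk6, and the granins Chga, Chgb, Scg2 and Scg3. Every probe set annotated to 1 of these symbols only was taken, which gave 15 probe sets for all 10 genes, of 34945 probe sets and 18193 genes tested. Pcsk5 has 5 of the probe sets, Cpe has 2 and each other gene has a single one. The groups were right atria of Myh6-cre; COUP-TFIIflox/flox mutants, ventricles of COUP-TFIIflox/flox controls and right atria of COUP-TFIIflox/flox controls, with 3 arrays each. All mice carried the floxed COUP-TFII alleles, were on the C57BL/6 background and were 2 months old. COUP-TFII is the nuclear receptor encoded by Nr2f2. The Myh6 promoter drives Cre in cardiomyocytes, so the other cells of the tissue keep the gene, and since the controls have no Cre, its own effect cannot be told apart from that of the deletion. The replicates are biological per the labels, and whether animals were pooled is not given.

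Atrial cardiomyocytes are endocrine cells. They store the precursor of atrial natriuretic peptide in dense-core granules near the Golgi apparatus and release it on stretch. PAM, which amidates the C-terminus of peptides, is a major membrane protein of these granules, although the natriuretic peptides are not amidated. Corin is a transmembrane serine protease that cleaves the atrial precursor at the cell surface, and PCSK6 activates corin. Furin cleaves proproteins at paired basic residues in the late Golgi, including the precursor of B-type natriuretic peptide, and carboxypeptidase E trims the basic residues that such cleavage leaves. Granins are acidic proteins that aggregate with hormones in granules of neuroendocrine cells.

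Values are the log2 of the deposited intensity, a relative measure of RNA whose zero point differs between probe sets, so levels are compared only within a probe set. Group values are means ± SD over 3 arrays. Differences are log2 ratios ± SE from a limma fit of all 9 arrays, and a change was called at an adjusted p under 0.05 (Benjamini-Hochberg over all 34945 probe sets). The median intensity of an array lay between 80.9 and 83.4. In bulk tissue, fewer cells of a type and less RNA per cell cannot be told apart.

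Several features of the samples moved with the groups. The targeted gene Nr2f2 (probe set 1436475_at) read 6.82, 6.62 and 6.82 in mutant atria, 5.96, 5.34 and 5.74 in ventricles and 7.53, 7.66 and 7.29 in control atria. Nr2f2 was lower in each mutant than in each control atrium (-0.74 ± 0.15, adjusted p = 0.0113). Its size depended on the probe set: of 6 for Nr2f2, 4 fell, by 0.74 to 1.29, while 1416158_at (-0.48, adjusted p = 0.108) and 1431237_at (0.14, groups overlapping) did not pass. Myh6, whose promoter drives Cre, read 14.88 to 14.99 on all arrays, at the top of the range, where a difference could not show. The mean level over 12 atrial cardiomyocyte markers was 11.13 to 11.59 in mutant atria, 7.93 to 8.56 in ventricles and 12.18 to 12.28 in control atria. Over 9 ventricular markers it was 10.48 to 10.77 in mutant atria, 11.40 to 11.46 in ventricles and 8.79 to 9.02 in control atria. By this mean the mutant atria stood nearer the ventricles, but the markers were split. Against control atria 6 were called higher, 1 lower and 2 did not pass. Hey2 fell (-0.57 ± 0.12, adjusted p = 0.0141). Lrtm1 read 5.65 to 6.05 in mutant atria, 10.43 to 10.71 in ventricles and 6.04 to 6.27 in control atria. Irx4 rose, but its 5.31 to 6.40 in mutant atria stayed far below the 8.82 to 9.16 in ventricles. Myh7, a ventricular myosin gene, averaged 12.08 in mutant atria, 11.08 in ventricles and 8.50 in control atria. The control atria also held liver and mesothelial transcripts. The mean of 12 hepatocyte markers was 5.33 to 5.39 in mutant atria, 5.18 to 5.29 in ventricles and 7.30 to 10.01 in control atria, and that of 11 mesothelial markers was 8.15 to 8.33, 6.69 to 7.04 and 9.46 to 9.77. Macrophage and myeloid markers lay at 10.23 to 10.71 in mutant atria, 9.26 to 9.80 in ventricles and 9.91 to 10.09 in control atria, with 5 of 9 called higher in mutant than in control atria. For smooth muscle and pericytes the levels were 9.77 to 9.87, 10.05 to 10.34 and 9.46 to 9.65 in the same order, with 6 of 8 higher and 1 lower. Fibroblast markers lay at 12.16 to 12.20 in mutant atria, 11.02 to 11.26 in ventricles and 11.90 to 12.03 in control atria. Endothelial markers lay at 10.19 to 10.42, 9.33 to 9.46 and 10.47 to 10.56 in the same order. Against control atria 1 of 8 fibroblast markers was higher and 1 of 8 endothelial markers lower in mutant atria. In ventricles 7 of 8 fibroblast and 6 of 8 endothelial markers were lower than in control atria, beside 21.5% of all probe sets. The part of these cells in the results was not tested. The log2 gap between the 3′ and 5′ control probe sets of Gapdh, a sign of RNA quality, was 0.21 to 0.30 in mutant atria, 0.15 to 0.23 in ventricles and 0.34 to 0.36 in control atria. The Y-linked gene Eif2s3y read 3.90, 10.01 and 10.05 in mutant atria, 3.67 to 3.82 in ventricles and 6.35, 9.97 and 9.53 in control atria. Xist, expressed from the inactive X, read 12.48, 6.73 and 6.48 in mutant atria, 11.80 to 11.87 in ventricles and 12.73, 8.55 and 10.91 in control atria, so control atria 2 and 3 carried both signals at high levels. Mutant replicate 1 was the only mutant array with high Xist and low Eif2s3y. The part of sex in results that changed without this array was not tested.

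Setting mutant beside control right atria addresses how these genes stand after the cardiomyocyte loss of COUP-TFII. Only 2 of the 15 probe sets were called: Pam fell and Scg3 rose. Cpe, Corin, Furin, Pcsk5, Pcsk6, Chga, Chgb and Scg2 did not pass. Of all probe sets tested, 13.9% were called in this comparison, 5.86% as higher and 8.05% as lower, so 2 of 15 is close to the share over the whole array. The values of the groups did not overlap for 5 probe sets, 1 higher and 4 lower in the mutants, as for 34.3% of all probe sets (17% higher and 17.4% lower). The median difference of the 15 probe sets was -0.06, against 0.02 over all probe sets.

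Against control ventricles, mutant atria were higher in Pam, Cpe, Corin, Furin and 2 probe sets of Pcsk5, and lower in Pcsk6, Chga and another probe set of Pcsk5. In total 9 of the 15 probe sets were called, 6 higher and 3 lower in the mutant atria, where 27.5% of all probe sets were called (13.4% higher and 14.1% lower). Groups did not overlap for 10, 7 higher and 3 lower, as for 43.3% of all (18.6% higher and 24.6% lower). Between the control chambers 13 of 15 were called, 5 higher and 8 lower in the ventricle, against 47.2% of all probe sets (25.7% higher and 21.5% lower). Groups did not overlap for 13, 5 higher and 8 lower, as for 55.6% of all (30.8% higher and 24.8% lower). The median difference was 0.22 for mutant atria against ventricles (all probe sets -0.05) and -0.31 for ventricles against control atria (all probe sets 0.06). Each pair of these comparisons shares a group, so their counts are not independent of each other.

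**Figure D1:**
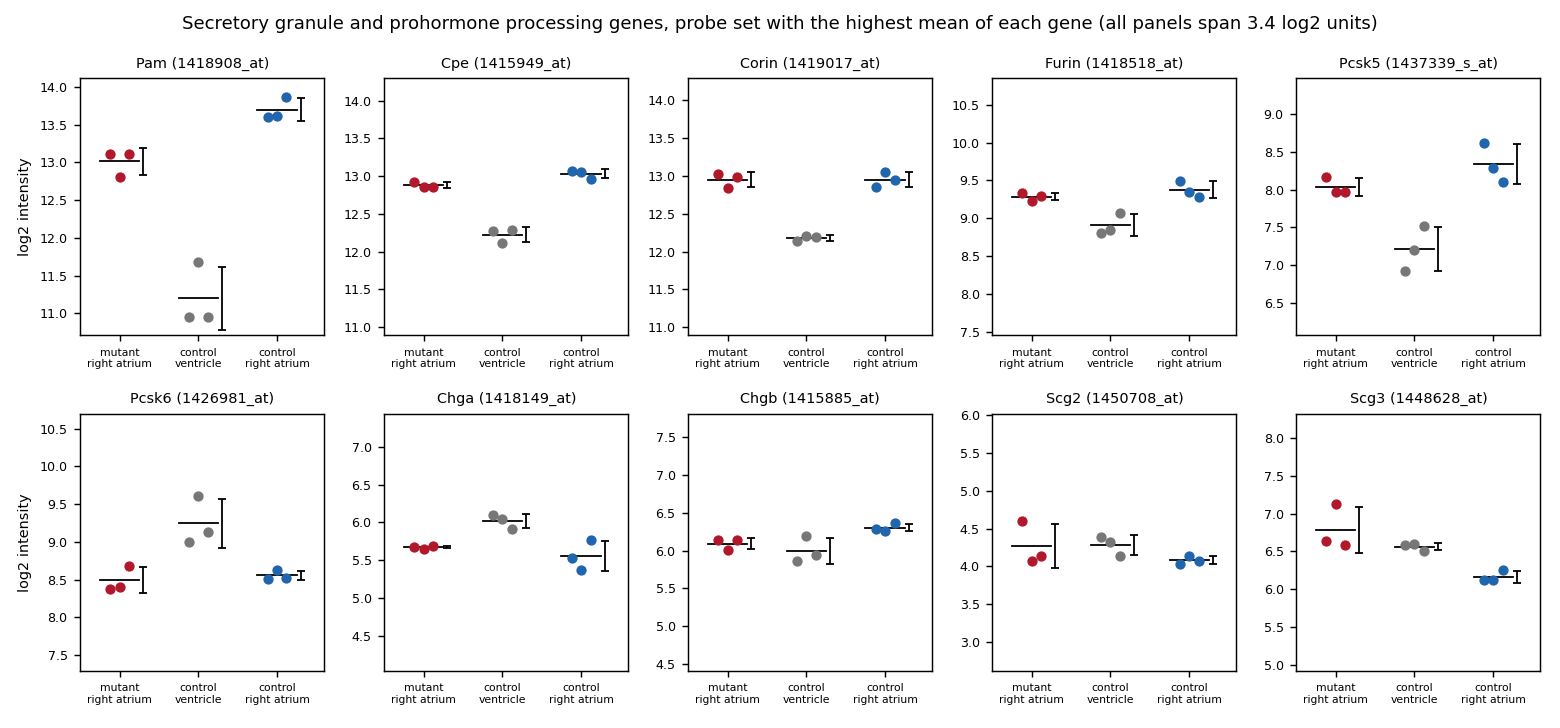
Log2 intensity of the probe set with the highest mean of each of the 10 genes on every array, in mutant right atria, control ventricles and control right atria; lines are group means, bars are SD of 3 arrays and each panel spans 3.4 log2 units. Pam has 3 separate levels, Cpe and Corin lie lower in ventricles than in both kinds of atria, Pcsk6 lies higher there, and Scg3 is lowest in control atria.

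Pam, the amidating enzyme of the granule membrane, showed the largest chamber difference of the 10 genes and the only fall in the mutants. It read 13.12, 12.81 and 13.12 in mutant atria, 10.95, 11.69 and 10.96 in ventricles and 13.60, 13.62 and 13.87 in control atria. No 2 groups overlapped, and the mutant atria lay between the ventricles and the control atria. Mutant atria were 1.60-fold lower than control atria (-0.68 ± 0.19, adjusted p = 0.0381) and 3.52-fold higher than ventricles (1.82 ± 0.19, adjusted p = 8.84e-05). Ventricles were 5.65-fold lower than control atria (-2.50 ± 0.19, adjusted p = 5.58e-06). The fall in mutant atria is close to the threshold. Its call was lost when any single mutant or control atrium array was left out, with adjusted p = 0.0594, 0.126 and 0.0723 without mutant replicates 1, 2 and 3 and 0.0787, 0.0816 and 0.0970 without control atrium replicates 1, 2 and 3, and differences of -0.73 to -0.58. The call held without any single ventricle array, at adjusted p down to 0.00480, and with only the 2 atrial groups fitted. The SE of the main fit is shared by the 3 groups. The ventricles spread most (SD 0.42, against 0.18 in mutant and 0.15 in control atria). The call was also lost with an intensity trend and robust variance (adjusted p = 0.0614). With the hepatocyte level as a covariate it was lost too, at -1.08 ± 0.44 (adjusted p = 0.444). That covariate nearly follows the control atria, which widens the SE of both comparisons with them. With it 0.441% of all probe sets were called in mutant against control atria and 5.41% in ventricles against control atria. A call lost with it, here and below, therefore says little about the gene itself.

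Cpe, which encodes carboxypeptidase E, passed between the chambers but not between mutant and control atria. Its probe set with the higher mean, 1415949_at, read 12.93, 12.85 and 12.86 in mutant atria, 12.27, 12.11 and 12.29 in ventricles and 13.07, 13.06 and 12.96 in control atria. Mutant and control atria did not overlap, but the gap was small (-0.15 ± 0.07, 95% interval -0.31 to 0.01, adjusted p = 0.186). Mutant atria were 1.57-fold higher than ventricles (0.65 ± 0.07, adjusted p = 0.000122), and ventricles were 1.75-fold lower than control atria (-0.81 ± 0.07, adjusted p = 1.69e-05; with the hepatocyte covariate -0.65, adjusted p = 0.0661). The dimmer probe set 1439437_x_at, of a class whose probes can match other transcripts, ran the opposite way. It read 6.79, 6.38 and 6.60 in mutant atria, 7.05, 6.92 and 6.72 in ventricles and 5.97, 6.38 and 6.50 in control atria. It was higher in ventricles than in control atria by 0.61 ± 0.15 (adjusted p = 0.00882), a call lost with the Y-linked covariate (adjusted p = 0.0531) and turned with the hepatocyte covariate (-0.018, adjusted p = 0.989). The mean of both probe sets gave no call between the chambers (-0.10, adjusted p = 0.344) or between mutant atria and ventricles (0.18, adjusted p = 0.143).

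Corin, the protease that activates atrial natriuretic peptide, was the member with the smallest difference between mutant and control atria. It read 13.03, 12.84 and 12.99 in mutant atria, 12.14, 12.21 and 12.19 in ventricles and 12.86, 13.05 and 12.95 in control atria. The atrial groups overlapped, while every ventricle lay below every atrium. The difference between mutant and control atria was 0.00 ± 0.08, with a 95% interval of -0.17 to 0.17 (adjusted p = 0.995). Mutant atria were 1.71-fold higher than ventricles (0.77 ± 0.08, adjusted p = 7.23e-05), and ventricles 1.71-fold lower than control atria (-0.77 ± 0.08, adjusted p = 3.70e-05). Both chamber calls held without any single array and with the hepatocyte covariate.

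Pcsk6, the convertase that acts on corin, had the opposite chamber pattern. It read 8.38, 8.40 and 8.69 in mutant atria, 9.0, 9.61 and 9.13 in ventricles and 8.51, 8.63 and 8.52 in control atria. The ventricles stood above both groups of atria, which overlapped. Mutant atria were 1.69-fold lower than ventricles (-0.75 ± 0.15, adjusted p = 0.00411) and differed from control atria by -0.06 ± 0.15 (95% interval -0.39 to 0.26, adjusted p = 0.806). Ventricles were 1.61-fold higher than control atria (0.69 ± 0.15, adjusted p = 0.00402), a call lost with the hepatocyte covariate (0.67, adjusted p = 0.395).

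Furin, the Golgi convertase present in most cells, read 9.33, 9.23 and 9.30 in mutant atria, 8.80, 8.85 and 9.07 in ventricles and 9.50, 9.35 and 9.29 in control atria. Mutant and control atria overlapped (-0.09 ± 0.09, 95% interval -0.29 to 0.11, adjusted p = 0.525). Mutant atria were 1.30-fold higher than ventricles (0.38 ± 0.09, adjusted p = 0.0108), and ventricles 1.39-fold lower than control atria (-0.47 ± 0.09, adjusted p = 0.00201). The control atrium highest in Furin, replicate 1, also had the highest hepatocyte level, whose part in Furin was not tested. The call between ventricles and control atria was lost with the hepatocyte covariate (-0.22 ± 0.21, adjusted p = 0.669). Most calls of this comparison were lost with it, from 47.2% of all probe sets to 5.41%.

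Pcsk5, a convertase with soluble and membrane-bound forms, was read by 5 probe sets that split by brightness. The 3 brighter ones were lower in ventricles than in control atria, by -1.12 ± 0.16 (1437339_s_at), -0.83 ± 0.12 (1451406_a_at) and -0.52 ± 0.14 (1438248_at), with adjusted p = 0.000391, 0.000444 and 0.0134. Probe set 1437339_s_at read 8.17, 7.96 and 7.96 in mutant atria, 6.92, 7.20 and 7.51 in ventricles and 8.62, 8.28 and 8.11 in control atria. Its mutant values overlapped those of control atria (-0.31 ± 0.16, 95% interval -0.67 to 0.05, adjusted p = 0.241) and lay above all ventricles (0.82 ± 0.16, adjusted p = 0.00434). The mean of the 5 probe sets did not pass there (0.22, adjusted p = 0.0561). Probe set 1451406_a_at read 6.55, 6.08 and 6.26 in mutant atria, 5.79, 5.75 and 6.02 in ventricles and 6.77, 6.70 and 6.58 in control atria, and no groups overlapped. Its difference between mutant and control atria missed the threshold (-0.39 ± 0.12, adjusted p = 0.0634) but passed without mutant replicate 1 (-0.51, adjusted p = 0.0157), with array weights (-0.42, adjusted p = 0.0205), without the dimmest probe sets (-0.39, adjusted p = 0.0483) and with the Y-linked covariate (-0.41, adjusted p = 0.0234).

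That probe set was 1.36-fold higher in mutant atria than in ventricles (0.45 ± 0.12, adjusted p = 0.0222), a call lost without mutant replicate 1 (adjusted p = 0.0629) or 3 (0.0511) and without ventricle replicate 1 (0.0682) or 2 (0.0736). On 1438248_at, control atrium replicate 1 stood apart at 6.15, with the other control atria at 5.64 and 5.49, mutant atria at 5.45 to 5.56 and ventricles at 5.19 to 5.31. Without it the mutant atria passed against ventricles (0.26, adjusted p = 0.0267). The same array had the most hepatocyte signal, whose part in this was not tested. With the hepatocyte covariate, which nearly follows the control atria, the ventricle difference on this probe set turned to 0.28 ± 0.22 (adjusted p = 0.581). On 1437339_s_at and 1451406_a_at the covariate also ended the call between the chambers (-0.51, adjusted p = 0.504, and -0.59, adjusted p = 0.336). The dim probe sets 1452475_at and 1424605_at ranged from 3.83 to 4.55 over all arrays. Of these, 1452475_at passed between the chambers only without control atrium replicate 3 (0.24, adjusted p = 0.0391). Probe set 1424605_at was called higher in ventricles, by 0.25 ± 0.08 against control atria (adjusted p = 0.0333), and lower in mutant atria than in ventricles (-0.27 ± 0.08, adjusted p = 0.0357). Both calls ended with quantile normalisation (adjusted p = 0.179 and 0.0850), with the Y-linked covariate (0.146 and 0.143) and without various single arrays, up to adjusted p = 0.107 without ventricle replicate 3 in the first and 0.131 without mutant replicate 3 in the second.

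**Figure D2:**
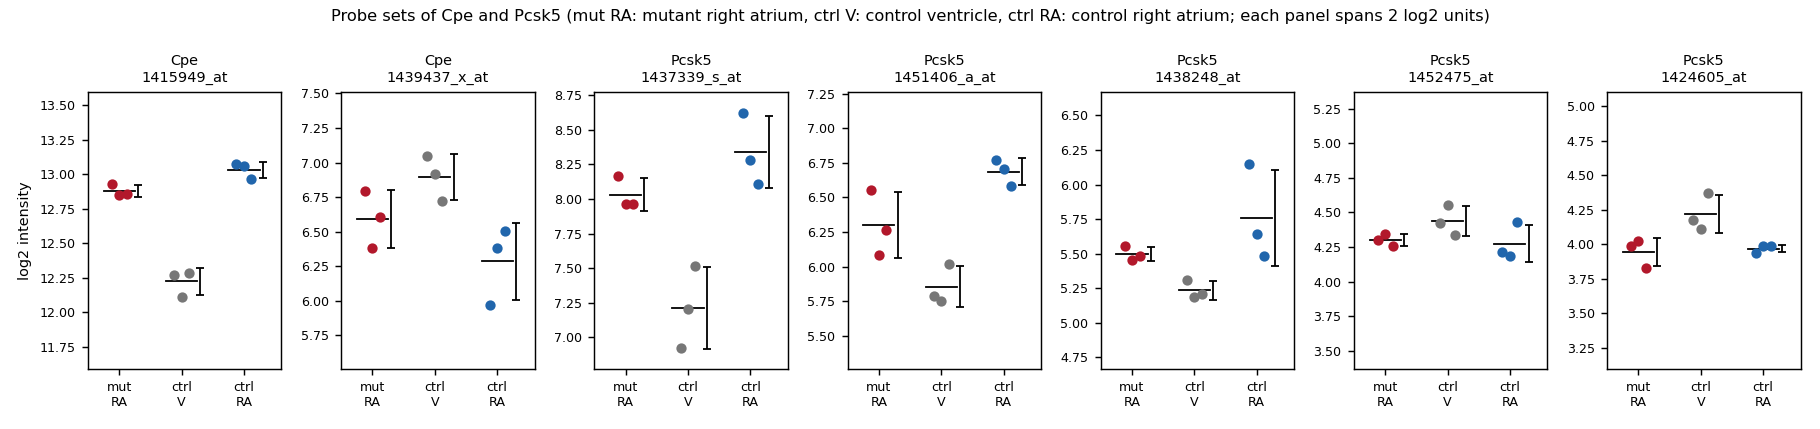
Log2 intensity on every array for the 2 probe sets of Cpe and the 5 of Pcsk5, in mutant right atria (mut RA), control ventricles (ctrl V) and control right atria (ctrl RA); lines are means, bars are SD of 3 arrays and each panel spans 2 log2 units. The Cpe probe sets order the control chambers in opposite ways, and the lower ventricular level of Pcsk5 shows on its 3 brighter probe sets.

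The granins were dim. The median log2 value of all tested probe sets lay between 6.70 and 6.80 on each array, and every granin mean except that of Scg3 in mutant atria was below it. No detection calls came with the values used here, and at such levels differences are compressed. Scg3, which links granin aggregates to the granule membrane in neuroendocrine cells, was the only member that rose in the mutants. It read 6.64, 7.13 and 6.58 in mutant atria, 6.58, 6.60 and 6.51 in ventricles and 6.11, 6.12 and 6.25 in control atria. Every mutant array lay above every control atrium, and mutant replicate 2 was the highest of all. The rise was 1.54-fold (0.62 ± 0.13, adjusted p = 0.0115), and it held without any single array (0.45 to 0.72, adjusted p at most 0.0442). With the hepatocyte covariate it kept much of its size with a wider SE and did not pass (0.46 ± 0.31, adjusted p = 0.710).

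Mutant atria did not differ detectably in Scg3 from ventricles (0.22 ± 0.13, 95% interval -0.07 to 0.51, adjusted p = 0.234). Ventricles were 1.32-fold higher than control atria (0.40 ± 0.13, adjusted p = 0.0270), a call lost without control atrium replicate 1 (adjusted p = 0.0781) or 2 (0.0751), without ventricle replicate 1 (0.0673) or 2 (0.0695) and with the hepatocyte covariate (0.23, adjusted p = 0.796). Since Scg3 is also a neuronal gene, 17 markers of autonomic neurons, chromaffin-like cells and Schwann cells were set beside it. Their mean level was 5.61 to 5.77 in mutant atria, 5.71 to 5.87 in ventricles and 5.46 to 5.55 in control atria, the same order of atrial groups as for Scg3. In mutant against control atria 2 of the 17 rose and none fell: Uchl1, a ubiquitin hydrolase of neurons, by 1.88 ± 0.19, and the neurofilament gene Nefl by 0.30 ± 0.09. That share is near the 13.9% called over all probe sets, and the neuronal gene Stmn2 differed the other way without passing (-0.58 ± 0.20, adjusted p = 0.0830). Th, the first enzyme of catecholamine synthesis, was dim at 5.11 to 5.55 on all arrays. The part of such cells in the Scg3 difference was not tested.

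Chga, the founding granin, read 5.68, 5.65 and 5.68 in mutant atria, 6.10, 6.04 and 5.91 in ventricles and 5.53, 5.37 and 5.76 in control atria. The ventricles were highest, and the atrial groups overlapped (0.12 ± 0.10, 95% interval -0.10 to 0.34, adjusted p = 0.463). Ventricles exceeded control atria by 0.46 ± 0.10 (adjusted p = 0.00383), but with the hepatocyte covariate by 0.09 (adjusted p = 0.898). Mutant atria were lower than ventricles by -0.34 ± 0.10 (adjusted p = 0.0259), a call lost without any mutant array (adjusted p = 0.0582, 0.0707 and 0.0643 without replicates 1, 2 and 3), without ventricle replicate 1 (0.0817) or 2 (0.0684) and with the Y-linked covariate (0.107).

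Chgb read 6.14, 6.00 and 6.14 in mutant atria, 5.86, 6.19 and 5.94 in ventricles and 6.29, 6.26 and 6.36 in control atria. Control atria were the highest, without overlap with either other group. The mutant difference did not pass (-0.21 ± 0.09, 95% interval -0.41 to -0.01, adjusted p = 0.152). Ventricles were lower than control atria by -0.31 ± 0.09 (adjusted p = 0.0195), a call that ended with median centring (adjusted p = 0.0595), the Y-linked covariate (0.0666), the hepatocyte covariate (0.346) and without control atrium replicate 3 (0.0548), ventricle replicate 1 (0.0680) or ventricle replicate 3 (0.0590). Scg2, the precursor of secretoneurin, passed in no comparison. It read 4.61, 4.07 and 4.14 in mutant atria, 4.38, 4.33 and 4.14 in ventricles and 4.03, 4.14 and 4.07 in control atria, with mutant replicate 1 apart from the other arrays of its group.

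**Figure D3:**
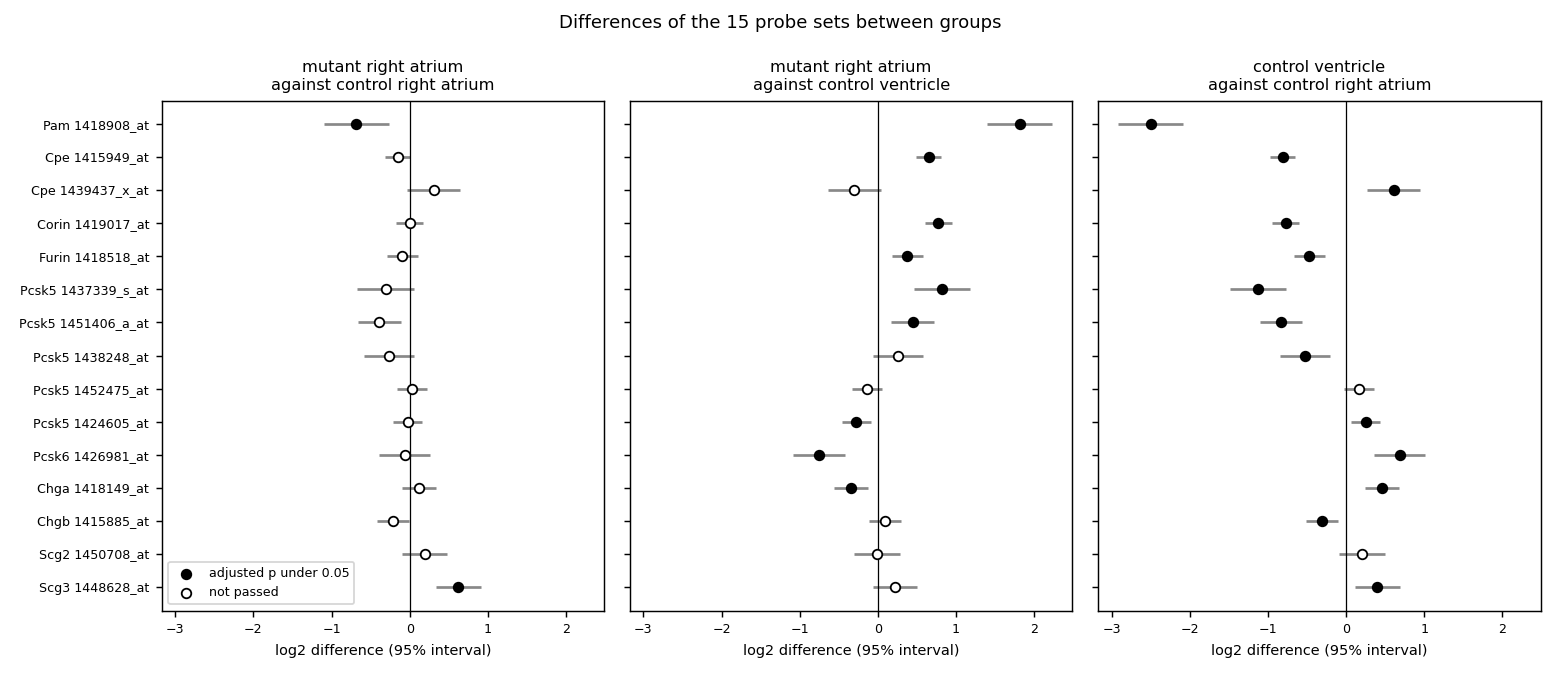
Log2 differences with 95% intervals for the 15 probe sets in each of the 3 comparisons, from the limma fit of all 9 arrays; filled points passed an adjusted p of 0.05. Mutant against control right atria has 2 filled points, Pam and Scg3, mutant atria against ventricles has 9 and ventricles against control atria has 13.

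Promoter windows from RefSeq (GRCm38.p6), 250 bases before to 50 after an annotated start, were given for 9 of the 10 genes, all but Cpe. The windows were searched on both strands for letters that nuclear receptors and cardiac or neuroendocrine factors are known to bind. AGGTCA, the half-site of COUP-TF receptors, was in the windows of 0 of these 9 genes and in 16.3% of all 32851 windows. AGGTGT, a T-box half-site, was in 0 of 9 and in 13.7% of all windows. The core motif of GATA factors, spelled AGATAA, was in the Scg2 window and in 11.2% of all. The palindrome TGACGTCA, the cAMP response element known from granin promoters, was in those of Chgb and Scg2, at positions -72 and -68 from the start, and in 1.79% of all windows. None of these 4 motifs overlaps another in the windows of the 9 genes, and the absence of these letters here says nothing about binding elsewhere. Shown are the 120 bases before the start of the 2 granin genes, with the element in capitals, and of Corin, which has the chamber difference without a mutant difference and no capitals.
Chgb, chr2:132781522-132781641, plus strand: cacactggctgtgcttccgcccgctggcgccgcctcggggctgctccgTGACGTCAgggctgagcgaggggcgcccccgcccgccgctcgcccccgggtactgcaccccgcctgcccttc
Scg2, chr1:79440027-79440146, minus strand: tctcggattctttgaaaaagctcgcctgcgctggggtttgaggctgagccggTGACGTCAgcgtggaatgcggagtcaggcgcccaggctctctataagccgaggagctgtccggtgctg
Corin, chr5:72504541-72504660, minus strand: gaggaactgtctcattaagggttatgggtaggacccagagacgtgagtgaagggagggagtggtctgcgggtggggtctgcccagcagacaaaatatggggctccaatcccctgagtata
The genes that share the element did not share a pattern: Chgb was called lower in ventricles than in control atria, and Scg2 was not called.

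The profiles most like those of the 2 called genes were sought among the other genes by the root mean square distance of centred log2 values over the 9 arrays. Only genes whose SD over the 9 arrays was at least 0.8 times that of the called gene were compared. For Pam, among 465 such genes, the nearest were Adgra2 at 0.20, Tbx5 at 0.24 and Scrn1 at 0.25. Tbx5, a transcription factor of the atria, averaged 10.43 in mutant atria, 8.84 in ventricles and 11.29 in control atria. For Scg3, among 5066 genes, they were Ccna2 at 0.08, Oas1a at 0.09 and Ppm1h at 0.10. Ccna2, which encodes a mitotic cyclin, averaged 6.38 in mutant atria, 6.26 in ventricles and 5.88 in control atria.

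Among the natriuretic peptides and their receptors, the cargo and its targets, 0 of 6 genes passed in limma in mutant against control atria (13.9% of all probe sets did), with differences of -0.35 to 0.21. Of these, Nppc (4.57 to 5.02) and Npr1 (4.59 to 5.03) were dim on all arrays, where differences are compressed, so their part of the count says little. Nppa, which encodes atrial natriuretic peptide, read 15.09, 15.05 and 15.06 in mutant atria, 12.82, 12.49 and 13.10 in ventricles and 15.11, 15.09 and 15.11 in control atria. Its atrial values lie at the top of the array's range, where differences are compressed, so the 4.80-fold higher level of mutant atria over ventricles is a lower bound. Nppb, which encodes the B-type peptide, read 13.11, 13.47 and 14.04 in mutant atria, 12.83, 12.33 and 12.09 in ventricles and 13.30, 13.32 and 13.35 in control atria. The mutant arrays spread on both sides of the control atria (0.21 ± 0.23, adjusted p = 0.569), and mutant atria were 2.18-fold higher than ventricles (adjusted p = 0.00510). Npr3, the clearance receptor, was 15.7-fold higher in mutant atria than in ventricles (3.97 ± 0.16) and 20.0-fold lower in ventricles than in control atria (-4.32 ± 0.16). Mutant and control atria differed in it by -0.35 ± 0.16 (adjusted p = 0.182), but without mutant replicate 1 by -0.53 (adjusted p = 0.0303).

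Of 38 measured genes of granule docking and exocytosis, 9 fell and 3 rose in mutant against control atria, where 8.05% of all probe sets fell and 5.86% rose. With 1 probe set per gene, as in this list, 17.5% of all genes were called either way. The median of the 38 genes, -0.02, was close to that of all probe sets, 0.02. Between ventricles and control atria 17 were lower and 10 higher, where 21.5% of all were lower and 25.7% higher, with a median of -0.12 (all probe sets 0.06). Sytl2, a Rab27 effector in granule tethering, read 9.71, 9.42 and 9.95 in mutant atria, 5.76, 5.54 and 6.22 in ventricles and 10.89, 10.94 and 10.78 in control atria. The 3 groups were wide apart: mutant atria were 2.26-fold lower than control atria (-1.18 ± 0.17, adjusted p = 0.00209) yet 14.5-fold higher than ventricles (3.85 ± 0.17, adjusted p = 7.89e-07). Its partner Rab27b fell by 0.48 ± 0.08 (adjusted p = 0.00283), and Rab27a differed by -0.46 ± 0.14 (adjusted p = 0.0571). Rab27a passed under other settings, such as without mutant replicate 1 (-0.65, adjusted p = 0.00227) and with the Y-linked covariate (-0.49, adjusted p = 0.00816). Unc13b, a priming factor, fell by 0.60 ± 0.13 (adjusted p = 0.0131) and Stx4a, a syntaxin of the plasma membrane, by 0.35 ± 0.07 (adjusted p = 0.00875). Rab3a, a granule GTPase read by a probe set of the kind that can match other transcripts, rose by 0.43 ± 0.07 (adjusted p = 0.00494). The mean of all its probe sets kept this call. With that mean Rab3a was also higher in mutant atria than in ventricles (0.22, adjusted p = 0.0173). Its call between ventricles and control atria was lost (0.11, adjusted p = 0.135).

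**Figure D4:**
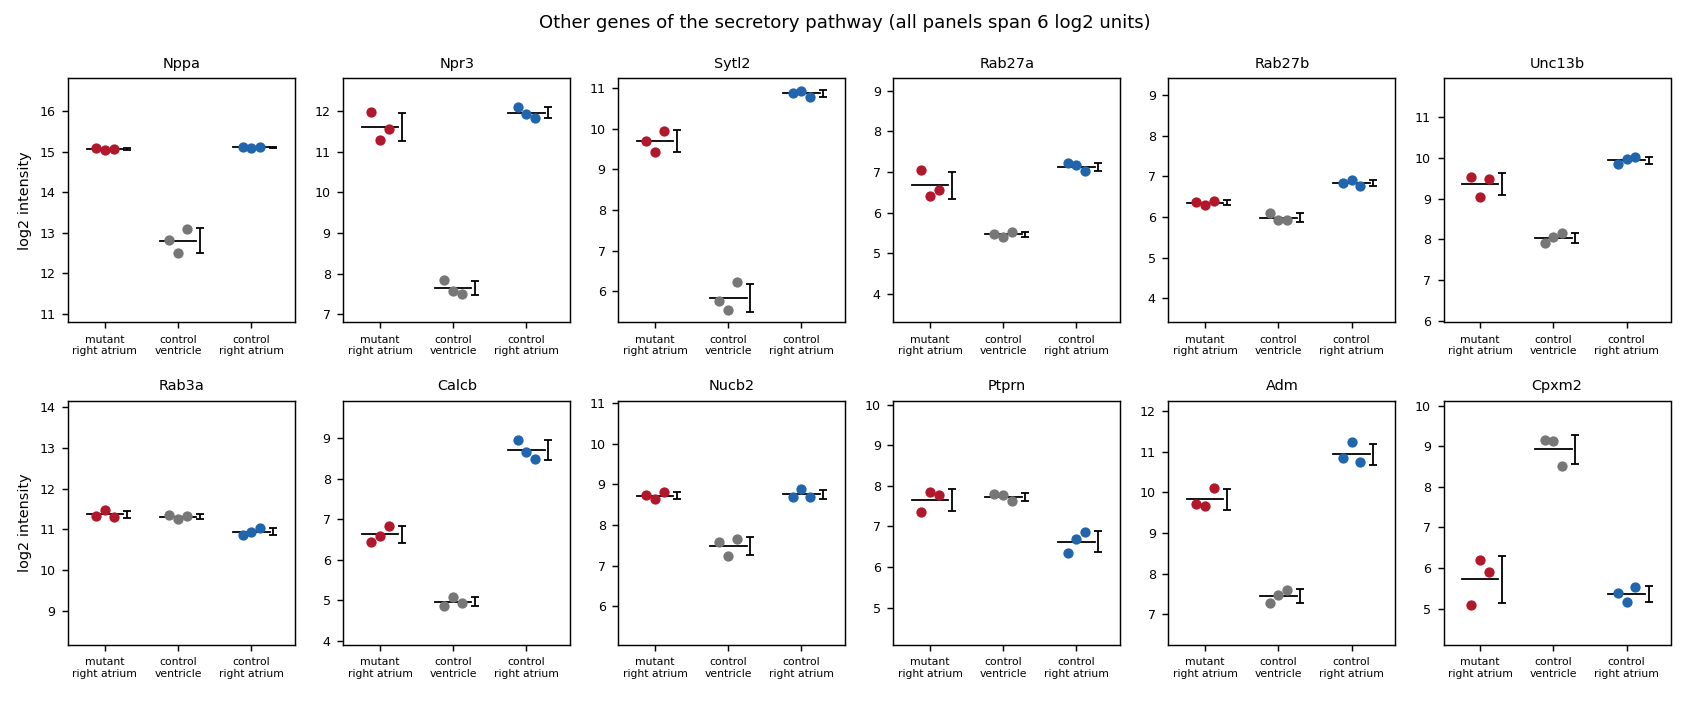
Log2 intensity on every array for 12 other genes of the secretory pathway in mutant right atria, control ventricles and control right atria; lines are means, bars are SD of 3 arrays and each panel spans 6 log2 units. In mutant atria Nppa and Nucb2 stand near the control atrial level, and Sytl2, Unc13b, Calcb and Adm lie between ventricles and control atria. On the probe sets shown Ptprn and Rab3a stand near the ventricular level.

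Other granule cargo and membrane genes changed both ways. Of 19, 3 rose and 3 fell in mutant against control atria (median -0.01), where 13.9% of all probe sets were called. Between ventricles and control atria 6 were higher and 8 lower (median 0.13), where 47.2% of all were called. Calcb, which encodes a calcitonin gene-related peptide, an amidated hormone, read 6.43, 6.59 and 6.84 in mutant atria, 4.87, 5.09 and 4.94 in ventricles and 8.96, 8.66 and 8.47 in control atria. It fell 4.21-fold in mutant atria (-2.07 ± 0.14, adjusted p = 1.65e-05), and the 3 groups did not overlap. Ptprn, a granule membrane protein, rose 2.03-fold (1.02 ± 0.15, adjusted p = 0.00228), while Nucb2, the precursor of nesfatin, differed by -0.03 ± 0.11 and was 2.41-fold lower in ventricles than in control atria. Small changes were those of Ccdc186, which acts in granule formation (-0.27 ± 0.06, adjusted p = 0.0151), and of the peptide gene Adm2 (0.34 ± 0.09, adjusted p = 0.0282). Both were lost without single arrays, up to adjusted p = 0.0643 for Ccdc186 without mutant replicate 2 and 0.0874 for Adm2 without control atrium replicate 2. Sv2a, a vesicle glycoprotein, differed by -0.38 ± 0.14 (adjusted p = 0.0950) and passed without control atrium replicate 3 (adjusted p = 0.0455).

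Of 20 other convertases, carboxypeptidases, peptidases and partner genes, 3 rose and 2 fell in mutant against control atria (median 0.06), beside 13.9% called over all probe sets. Between ventricles and control atria 8 were higher and 6 lower (median 0.16), beside 47.2%. Adm, the precursor of adrenomedullin, a peptide that PAM amidates, was read, like Pm20d1, by a probe set that can match other transcripts. Its values were 9.70, 9.66 and 10.12 in mutant atria, 7.28, 7.47 and 7.6 in ventricles and 10.83, 11.23 and 10.74 in control atria. Like Pam it stood between the control tissues, 2.16-fold lower than in control atria (-1.11 ± 0.16, adjusted p = 0.00164) and 5.19-fold higher than in ventricles (2.38 ± 0.16, adjusted p = 6.24e-06). Aebp1, a carboxypeptidase-like matrix protein, fell by 0.83 ± 0.09 (adjusted p = 0.000403). Pm20d1, a secreted protein of a peptidase family by sequence, rose 2.82-fold (1.5 ± 0.17, adjusted p = 0.000484). Cpxm1, a carboxypeptidase-like protein, rose 1.48-fold (0.57 ± 0.13, adjusted p = 0.0160, but 0.0528 to 0.0619 without mutant replicate 2 or control atrium replicate 1 or 2). Cpxm2, of the same family, was 9.14-fold lower in mutant atria than in ventricles (-3.19 ± 0.27) and differed from control atria by 0.37 ± 0.27 (adjusted p = 0.395). Mme, which encodes neprilysin, a peptidase that degrades natriuretic peptides, was 5.57-fold lower than in ventricles (-2.48 ± 0.28) and differed from control atria by 0.20 ± 0.28, or by 0.59 without mutant replicate 1 (adjusted p = 0.0365). With the hepatocyte covariate, of the 13 genes named here as changed in these 3 lists in mutant against control atria only Pm20d1 kept its call, and Nr2f2 lost its own (-0.36, adjusted p = 0.831). All 13 kept their direction, and several kept much of their size with a wider SE: Aebp1 was at -1.12 ± 0.20, Sytl2 at -1.03 ± 0.43, Adm at -0.91 ± 0.38, Unc13b at -0.80 ± 0.31 and Stx4a at -0.33 ± 0.17. Ptprn (0.41 ± 0.31) and Cpxm1 (0.18 ± 0.28) were much smaller than without the covariate.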

How the data were processed

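RNA of 9 samples was labelled by 3′ in vitro transcription and hybridised to Affymetrix mouse arrays, per the labels' protocols. Each deposited value is the intensity of a probe set, and RMA is the tool that the submitters' processing notes name. RMA corrects background, normalises by quantiles and compresses differences near both ends of the range. The values are on a linear scale, so log2 was taken. Of 45101 probe sets, 64 controls, 932 with several genes and 9160 without a gene in GEO's platform annotation were left out. The rest, 34945, were fitted in limma 3.58.1 (R 4.3.3) with a mean per group and 6 residual and 3.83 prior degrees of freedom. Tests were 2-sided.

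Other pathway genes and markers were read by their probe set with the highest mean. The shares beside their counts cover all probe sets, including dimmer ones of the same genes. With 1 probe set per gene the share called was higher, at 17.5% in mutant against control atria. It was 32.7% in mutant atria against ventricles and 52.8% in ventricles against control atria. Named were all members, per list up to 4 genes with the smallest p in each comparison with control atria, and Nppa, Nppb, Nr2f2 and Myh6. Members and lists were chosen with earlier results of these data known. Among the alternatives, the hepatocyte covariate is the mean log2 level of the 12 measured hepatocyte markers of each array and the Y-linked covariate the mean level of Y-linked genes. Simulated arrays for mutant against control atria were drawn from control atrium means with independent noise. On these, 91 of 100 probe sets changed 2-fold and 64 of 100 changed 1.5-fold were recovered, with 4 false calls among 34945. No others were changed, while 13.9% were called in the data, and no variation was shared between probe sets. Recovery in the real comparison can therefore differ. Precision is bounded by the number of arrays. Plots were made in matplotlib 3.10.9.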

Additional observations from a re-analysis of the deposited data

How the results depend on the processing

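Counts of called probe sets of the 10 genes moved by over 1.5 times under some settings. The share called over all probe sets moved too and is given in brackets. In mutant against control atria (13.9% in the main fit) the 2 calls became 1 with the replicate block (12.1%, Pam at adjusted p = 0.0689). They also became 1 with an intensity trend and robust variance (14.7%). The count was 1 or 2 without each array in turn (7.77% to 13.3%), and 0 with the hepatocyte covariate or an adjusted p of 0.01 (5.6%). In mutant atria against ventricles (27.5% in the main fit) the 9 calls became 5 with an adjusted p of 0.01 (15.7%) or a 1.5-fold minimum (9.62%). They were 6 to 10 without single arrays (20.7% to 27.6%). With the mean of all probe sets of a gene, 5 of 10 genes were called, beside 31.7% of all genes. In ventricles against control atria (47.2% in the main fit) the 13 calls became 7 with a 1.5-fold minimum (15.4%) and 2 (Pam and Corin) with the hepatocyte covariate. They were 10 to 13 without single arrays (37% to 46.6%). With the mean of all probe sets of a gene, 8 of 10 genes were called, beside 51.9% of all genes. The labels do not say whether the replicate numbers pair the samples. Deviations from the group means correlated at -0.10 to 0.11 between same-numbered samples and at -0.15 to 0.12 between the others. With 3 arrays per group this shows no sign of pairing but cannot exclude it. Beside Pam the block ended the calls of Pcsk5 1424605_at in both comparisons with ventricles (adjusted p = 0.0674 and 0.0604). The hepatocyte covariate nearly follows the control atria, and with it 0.441% of all probe sets were called in mutant against control atria, 5.41% in ventricles against control atria and 27.2% in mutant atria against ventricles. Under it the ventricle difference turned to -0.018 for Cpe 1439437_x_at and 0.28 for Pcsk5 1438248_at. The cause of these moves was not tested. The Y-linked covariate was chosen after seeing the data. With it the counts were 3 in mutant against control atria (14.5%), 7 in mutant atria against ventricles (19.8%) and 10 in ventricles against control atria (35.6%). Over all settings, 857 of 945 single values of the 10 genes and 1549 of 1644 of the other named genes kept their call or its absence. Limits are the 3 arrays per group and the low signal of the granins.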
